A study of Mus musculus with 18 samples.

Results

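The 10 genes described here were the rows of an expression table whose gene name was Tgfb1, Tgfbr2, Tgfbi, Snai1, Snai2, Zeb1, Zeb2, Twist1, Vim or Cdh2, out of 54532 genes in the table. Each name matched 1 gene. They were read in all 18 libraries of the mouse cell line KPCA.B, labelled as high-grade serous ovarian cancer, from polyadenylated RNA. The cells carried the hairpin RNA shNdufa5_1 or shNdufa5_2, both against Ndufa5, a subunit of respiratory complex I, or a control hairpin (shControl) with Ndufa5 wild type. Each was grown in senescent cell medium (SCM), conditioned by cells made senescent with cisplatin, or in proliferative medium (PCM), conditioned by dividing cells given DMF, the vehicle. All cells had conditioned and fresh medium at 1:1, the fresh part being high-glucose DMEM with 4% heat-inactivated FBS, EGF at 2 ng/mL and ITS-G supplement. This gave 6 groups of 3 libraries: shNdufa5_1 in SCM, shNdufa5_1 in PCM, shNdufa5_2 in SCM, shNdufa5_2 in PCM, shControl in SCM and shControl in PCM. All are 1 line in culture. Since no label states whether replicate libraries are separate cultures, the p-values speak for the spread between these samples alone, and that spread may be technical.

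In an epithelial to mesenchymal transition (EMT), cells give up contacts held by E-cadherin and take on a vimentin cytoskeleton and N-cadherin contacts. The transcription factors Snail, Slug, Zeb1, Zeb2 and Twist1 drive it by repressing epithelial genes through E-box DNA motifs. TGF-beta is a secreted inducer of the transition: the ligand binds the type II receptor, which recruits and activates the type I receptor, and Smad proteins carry the signal to the nucleus. Ovarian carcinoma lines often mix epithelial and mesenchymal traits, and TGF-beta is a known part of the secretome of senescent cells.

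The promoters of 3 members are shown because Tgfb1 and Tgfbr2 are the ligand and receptor whose levels moved in opposite directions between media in shControl cells, and because Snai1 alone of the members matched held the hexamer that Snail and Zeb factors bind. RefSeq promoters of GRCm38.p6 were at hand for 7 of the 10 members, in 10 windows. The 250 bases before the start were searched on both strands for CACCTG (the complement is CAGGTG), the E-box of Snail and Zeb factors, and for CAGAC (the complement is GTCTG), a Smad-binding element. No match of one motif overlapped a match of the other, and capitals mark the matches. The windows are chr7:25686752-25687001 on the plus strand for Tgfb1, chr9:116175364-116175613 on the minus strand for Tgfbr2 and chr2:167537945-167538194 on the plus strand for Snai1.
Tgfb1: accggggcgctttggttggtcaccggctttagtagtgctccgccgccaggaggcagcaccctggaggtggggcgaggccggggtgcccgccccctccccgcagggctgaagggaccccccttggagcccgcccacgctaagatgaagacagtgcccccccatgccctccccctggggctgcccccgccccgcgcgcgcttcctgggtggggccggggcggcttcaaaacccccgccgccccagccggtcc
Tgfbr2: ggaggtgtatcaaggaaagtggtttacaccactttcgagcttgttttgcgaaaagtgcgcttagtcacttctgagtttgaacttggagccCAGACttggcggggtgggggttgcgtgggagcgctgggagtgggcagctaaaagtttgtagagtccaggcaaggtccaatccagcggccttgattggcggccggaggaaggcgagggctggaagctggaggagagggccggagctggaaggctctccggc
Snai1: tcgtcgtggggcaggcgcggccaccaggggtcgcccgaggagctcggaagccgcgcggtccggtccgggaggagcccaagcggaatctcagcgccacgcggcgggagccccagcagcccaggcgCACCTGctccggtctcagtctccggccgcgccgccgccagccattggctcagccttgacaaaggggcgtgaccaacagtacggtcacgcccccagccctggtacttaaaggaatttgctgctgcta
The E-box in the Snai1 window lay from 126 to 121 bases before the start, and 17.2% of the 32851 promoters of the RefSeq table held that motif on either strand in a window of this length. The Smad-binding element of Tgfbr2 lay from 160 to 156 bases before the start, and 42.2% of all promoters held one. Tgfbi had 2 such elements, Twist1 had 1, and the Tgfb1, Zeb2 and Vim windows held neither motif. The Tgfbi and Vim windows and windows 2, 3 and 4 of Zeb2 overlapped annotated exons. The Tgfbi window ended at 56609585, past the gene start of 56609523 given below. A match is a run of letters and not a shown site.

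The values are FPKM, fragments scaled to the length of a gene's exons and to a denominator for each library, as the authors deposited them. Depth recovered from the steps of low values was 13.8 to 38.9 M fragments per library. The denominator recovered from those steps was not that total. In shControl cells in SCM it was 13.4, 33.7 and 13.6 M, beside 15.2, 38.9 and 15.4 M fragments. In PCM it was 15.9, 35.2 and 18.5 M, beside 15.3, 33.8 and 17.6 M. What set the denominator was not tested. Ndufa5 averaged 6.49 FPKM in shNdufa5_1 cells in both media, against 23.1 in SCM and 18.8 in PCM in shControl cells, and 17.0 in SCM and 17.5 in PCM in the libraries labelled shNdufa5_2. Those libraries kept most of the target's transcript, and every direction drawn from them below carries that limit. In exact two-sided permutation tests against shControl, which cannot go below 0.1 with 3 libraries a group, p was 0.1 for shNdufa5_1 in SCM and in PCM. For the libraries labelled shNdufa5_2 the exact p was 0.1 in SCM and 0.6 in PCM. By the limma fit given below, Ndufa5 in them was lower by 0.43 in SCM (adjusted p = 0.0125). That call was kept in 16 of 18 fits that left out 1 library. In PCM the difference was -0.08 (adjusted p = 0.647). With shNdufa5_1 it was -1.68 in SCM and -1.39 in PCM (adjusted p = 9.80e-09 and 1.47e-07). In shControl cells Ndufa5 was 0.30 higher in SCM than in PCM (adjusted p = 0.0436), kept in 6 of 18 such fits. Summed FPKM was 437859 to 484520 in shControl cells in SCM, against 290242 to 303782 in PCM, and its part in the results below was not tested beyond the scalings given. The line's defining markers were mixed: the keratin genes Krt7, Krt8, Krt18 and Krt19 averaged 224 to 444, 127 to 223, 481 to 949 and 201 to 423 FPKM over the groups. Pax8, a lineage factor of the fallopian tube and ovarian cancer, averaged 7.84 to 13.9 FPKM. Cdh1, the gene of E-cadherin, averaged 0.304 to 1.31 FPKM and Epcam 0.0440 to 0.344, and Wt1 and Muc16 were at 0 in every library. Of 6 fibroblast, 6 immune, 5 endothelial and 3 mesothelial markers, Thy1, Cd3e and Itgam were at 0 in every library, and no group averaged over 0.0719 FPKM for Ptprc, Pecam1, Cdh5, Kdr or Tek. Other markers were read: Dcn, Pdgfra, Cd68, Cd14, Plvap and Msln averaged at least 1 FPKM. Over all libraries the summed fibroblast markers were 1.29 to 5.05 FPKM and the immune ones 7.998 to 15.8. The endothelial ones were 2.20 to 10.5 and the mesothelial ones 40.7 to 71.9. Of the 3 mesothelial markers Msln alone averaged at least 1 FPKM, and of the 5 endothelial ones Plvap alone. Whether other cell types were present was not tested.

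None of the 10 genes stayed under 1 FPKM in every library. Tgfbi came closest, under 1 in 12 of 18 libraries with a mean of 0.795. Snai1 was under 1 in 1 library and the other 8 in none. Vim had the highest level, with a mean of 427 FPKM that ranked 77 among all genes. Tgfb1 averaged 30.0, Twist1 24.3, Tgfbr2 17.2, Snai2 15.3, Zeb1 8.66, Cdh2 8.31, Zeb2 3.71 and Snai1 2.00 FPKM over the 18 libraries.

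**Figure D1:**
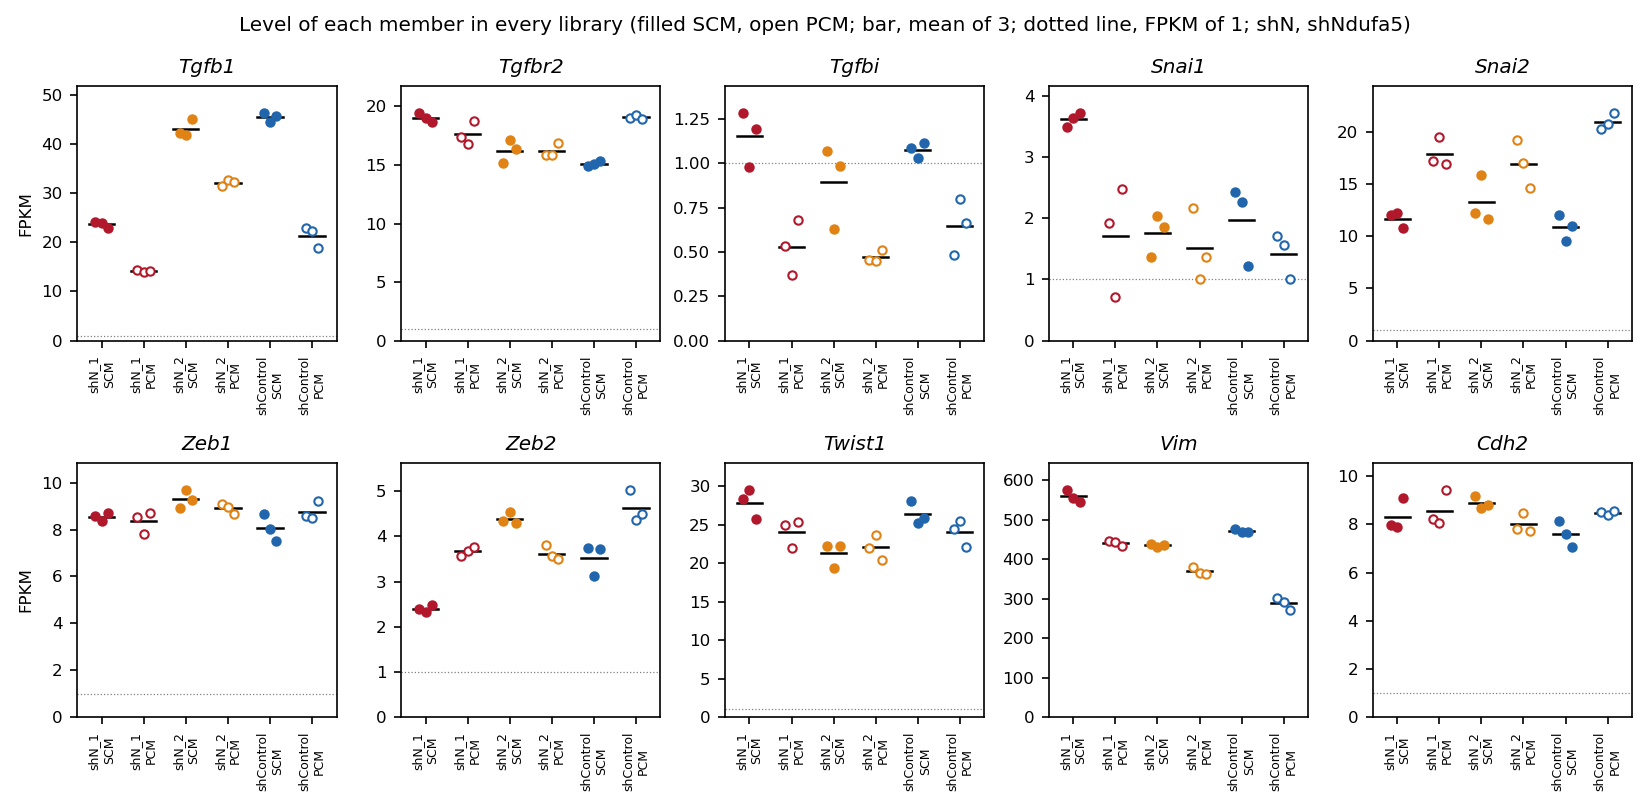
FPKM of the 10 genes in every library (y axis, linear from 0), by hairpin and medium (x axis; filled points SCM, open points PCM, black bars means of 3 libraries, dotted line 1 FPKM). Tgfb1 in shControl cells sits at 44.6 to 46.3 in SCM and at 18.9 to 22.9 in PCM, and Tgfbi is the one gene with most libraries under the dotted line.

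The first question was what SCM did to these genes relative to PCM. In shControl cells Tgfb1 and Vim rose and Tgfbr2, Snai2 and Zeb2 fell, while Snai1, Zeb1, Twist1 and Cdh2 did not pass the test. Across the 3 hairpins, Tgfb1 and Vim rose and Snai2 fell in each one, but the Vim calls were lost under quantile normalization and the Snai2 call in the libraries labelled shNdufa5_2 under several settings. Tests were limma's, run on log2(FPKM + 1) over the 11084 genes with a mean of at least 1 FPKM, and a gene was called at a Benjamini-Hochberg adjusted p under 0.05. Tgfbi did not reach that mean and was not tested there. Differences below are on that log2 scale, which understates the change of low genes.

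Among the 9 members tested, 6 were called in shNdufa5_1 cells (4 higher, 2 lower), beside 42.3% of all genes tested (22.5% higher, 19.8% lower). In the libraries labelled shNdufa5_2, 4 were called (3 higher, 1 lower), beside 22.8% (11.7% higher, 11.1% lower). In shControl cells 5 were called (2 higher, 3 lower), beside 61.9% (31.7% higher, 30.2% lower). With Tgfbi, the SCM and PCM libraries of 7 of 10 members were apart in shNdufa5_1 cells, of 5 in the libraries labelled shNdufa5_2 and of 7 in shControl cells, beside 52.2%, 37.8% and 66.1% of all genes tested. The share in shControl cells was near the background and nothing is read from it. The members' median difference was 0.10 in shNdufa5_1 cells, 0.14 in the libraries labelled shNdufa5_2 and -0.11 in shControl cells, beside 0.02, 0.00 and 0.00 for all genes tested. Of all called genes, 53.2%, 51.4% and 51.2% were higher in SCM in these 3 comparisons. With values scaled to total fragments the shares were 42.6%, 30.6% and 26.4%, and the median of all genes in shControl cells moved to -0.20.

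Tgfb1 encodes TGF-beta 1, the ligand (ENSMUSG00000002603; chromosome 7, 25687002 to 25705077). In shNdufa5_1 cells it had 24.2, 23.9 and 22.9 FPKM in SCM, against 14.4, 13.9 and 14.1 in PCM. The libraries labelled shNdufa5_2 had 42.3, 41.8 and 45.1 FPKM in SCM, against 31.5, 32.6 and 32.2 in PCM. With shControl it had 46.3, 44.6 and 45.8 FPKM in SCM, against 22.9, 22.3 and 18.9 in PCM. Every SCM library lay above every PCM library of the same hairpin. The ratio of group means was 1.67 with shNdufa5_1, 1.34 in the libraries labelled shNdufa5_2 and 2.13 in shControl cells. The rise was 0.70 ± 0.05 (SE; adjusted p = 1.98e-07), 0.41 ± 0.05 (adjusted p = 9.25e-05) and 1.06 ± 0.05 (adjusted p = 2.39e-10) in that order. In shControl cells 98.2% of the genes tested had a lower difference. The order of group means ran from shControl in SCM (45.6) through the libraries labelled shNdufa5_2 in SCM (43.1) and PCM (32.1), shNdufa5_1 in SCM (23.7) and shControl in PCM (21.4) to shNdufa5_1 in PCM (14.1). The first 2 of these groups overlapped and the other neighbours did not.

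Tgfbr2 encodes the type II receptor that binds the ligand (ENSMUSG00000032440; chromosome 9, 116084293 to 116175360, minus strand). In shNdufa5_1 cells it had 19.42, 18.996 and 18.69 FPKM in SCM, against 17.4, 16.8 and 18.7 in PCM, and the groups overlapped. The difference of 0.10 (95% interval 0.01 to 0.20, adjusted p = 0.0823) did not pass, but passed without replicate 3 of shNdufa5_1 in PCM (0.15, adjusted p = 0.0275). Libraries labelled shNdufa5_2 had 15.1, 17.2 and 16.4 FPKM in SCM, against 15.9, 15.8 and 16.9 in PCM, a difference of 0.00 (-0.10 to 0.10, adjusted p = 0.984). With shControl it had 14.9, 15.05 and 15.4 FPKM in SCM, against 19.02, 19.3 and 18.9 in PCM, without overlap. It fell there by 0.32 ± 0.05 (SE; adjusted p = 2.51e-05), and by 0.55 with values scaled to total fragments.

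Tgfbi, whose name records its induction by TGF-beta, encodes a secreted matrix protein that binds integrins (ENSMUSG00000035493; chromosome 13, 56609523 to 56639562). It had 1.28, 0.978 and 1.19 FPKM with shNdufa5_1 in SCM, against 0.532, 0.370 and 0.679 in PCM. The libraries labelled shNdufa5_2 had 1.07, 0.628 and 0.984 FPKM in SCM, against 0.457, 0.450 and 0.510 in PCM. In shControl cells it had 1.08, 1.03 and 1.11 FPKM in SCM, against 0.482, 0.800 and 0.660 in PCM. In each hairpin the 3 SCM libraries lay above the 3 PCM libraries. These values rested on 22 to 131 fragments a library, with 82 for the highest FPKM (1.28) and 22 for the lowest (0.370). The ratio of means was 2.18 with shNdufa5_1, 1.89 in the libraries labelled shNdufa5_2 and 1.66 in shControl cells. When no filter on low values was used, limma gave adjusted p = 0.00492, 0.0604 and 0.0313 for these differences. With a pseudocount of 0.1 as well, they were 0.0122, 0.0910 and 0.0712, so Tgfbi passed with shNdufa5_1 under both settings and in shControl cells under the first alone.

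Snai1 encodes Snail (ENSMUSG00000042821; chromosome 2, 167538195 to 167542814), and its promoter carried the E-box shown above. In shNdufa5_1 cells it had 3.49, 3.64 and 3.71 FPKM in SCM, against 1.93, 0.704 and 2.48 in PCM, without overlap. The rise of 0.83 ± 0.24 (SE; adjusted p = 0.0109) was lost without replicate 2 in PCM (0.53, adjusted p = 0.0565), a library with 18 fragments of the gene. It was also lost when each library's trend with GC content and length was removed (0.61, adjusted p = 0.0773). Libraries labelled shNdufa5_2 had 1.37, 2.04 and 1.86 FPKM in SCM, against 2.16, 1.01 and 1.37 in PCM. In shControl cells the values were 2.43, 2.27 and 1.23 FPKM in SCM, against 1.70, 1.56 and 1.00 in PCM. Both pairs overlapped and did not pass, at 0.15 (95% interval -0.36 to 0.66, adjusted p = 0.704) and 0.28 (-0.22 to 0.79, adjusted p = 0.319).

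Snai2 encodes Slug, the other Snail family repressor among the members (ENSMUSG00000022676; chromosome 16, 14705852 to 14709385). In shNdufa5_1 cells it had 12.1, 12.2 and 10.8 FPKM in SCM, against 17.2, 19.5 and 17.0 in PCM. The libraries labelled shNdufa5_2 had 12.3, 15.9 and 11.7 FPKM in SCM, against 19.2, 17.0 and 14.6 in PCM. With shControl it had 12.1, 9.55 and 11.001 FPKM in SCM, against 20.3, 20.8 and 21.8 in PCM. The groups were apart in shNdufa5_1 and shControl cells and overlapped in the libraries labelled shNdufa5_2. Snai2 fell by 0.57 ± 0.11 (SE; adjusted p = 0.000695), by 0.33 ± 0.11 (adjusted p = 0.0399) and by 0.89 ± 0.11 (adjusted p = 4.44e-06) in these 3 comparisons. The call in the libraries labelled shNdufa5_2 was lost without replicate 1 or 2 in PCM, replicate 1 or 3 in SCM, or replicate 2 of shControl in PCM (-0.24 to -0.33). It was also lost with no filter on low values (adjusted p = 0.104), with the GC and length trend removed (-0.30, adjusted p = 0.0578) and with only the compared groups in the fit (adjusted p = 0.131). In shControl cells 0.830% of the genes tested fell further.

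Zeb1 and Zeb2 encode zinc finger repressors of E-cadherin. Zeb1 (ENSMUSG00000024238; chromosome 18, 5591860 to 5775467) kept to 7.52 to 9.70 FPKM over all 18 libraries. No medium difference of Zeb1 passed: 0.03 (95% interval -0.08 to 0.15) with shNdufa5_1, 0.06 (-0.06 to 0.17) in the libraries labelled shNdufa5_2 and -0.11 (-0.22 to 0.01) in shControl cells. Their adjusted p were 0.677, 0.508 and 0.0980. In shControl cells the difference passed without replicate 1 in SCM (-0.15, adjusted p = 0.0285) and with scaling to total fragments (-0.33). Zeb2 (ENSMUSG00000026872; chromosome 2, 44983632 to 45117395, minus strand) did not move as Zeb1 did. It had 2.40, 2.32 and 2.47 FPKM with shNdufa5_1 in SCM, against 3.58, 3.68 and 3.76 in PCM. Libraries labelled shNdufa5_2 had 4.34, 4.55 and 4.30 FPKM in SCM, against 3.80, 3.57 and 3.49 in PCM. In shControl cells it had 3.74, 3.12 and 3.72 FPKM in SCM, against 5.03, 4.36 and 4.49 in PCM. The groups were apart in all 3, lower in SCM with shNdufa5_1 and shControl and higher in SCM in the libraries labelled shNdufa5_2.

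Zeb2 fell by 0.46 ± 0.07 (SE; adjusted p = 5.29e-05) with shNdufa5_1 and by 0.32 ± 0.07 (adjusted p = 0.000612) in shControl cells. It rose by 0.22 ± 0.07 (adjusted p = 0.0219) in the libraries labelled shNdufa5_2. Its exons have a GC content of 40.6%, the lowest of the 10 members. With each library's trend with GC content and length removed, the 3 differences were -0.14 (adjusted p = 0.0786), 0.02 (adjusted p = 0.763) and 0.09 (adjusted p = 0.322), so no Zeb2 call between media was kept and the direction in shControl cells turned. The rise was also lost without replicate 2 or 3 of its PCM group or replicate 2 of its SCM group (0.20 to 0.22), with scaling to total fragments (0.18, adjusted p = 0.0661) and with only the compared groups in the fit (adjusted p = 0.0630).

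Twist1 encodes a basic helix-loop-helix factor that activates mesenchymal genes (ENSMUSG00000035799; chromosome 12, 33957671 to 33959829). It had 28.3, 29.5 and 25.7 FPKM with shNdufa5_1 in SCM, against 25.001, 22.008 and 25.4 in PCM. The libraries labelled shNdufa5_2 had 22.2, 19.4 and 22.2 FPKM in SCM, against 22.0, 23.7 and 20.5 in PCM. With shControl it had 28.1, 25.2 and 25.8 FPKM in SCM, against 24.5, 25.4 and 22.1 in PCM. The groups were apart with shNdufa5_1 alone. Its rise of 0.20 ± 0.08 (SE; adjusted p = 0.0450) was called in 11 of 18 fits that left out 1 library, and was -0.02 (adjusted p = 0.849) with the GC and length trend removed. It was also lost with no filter on low values (adjusted p = 0.107), scaling to total fragments (adjusted p = 0.122), quantile normalization (adjusted p = 0.0947) and only the compared groups in the fit (adjusted p = 0.0649). The 7 libraries whose omission ended the call were replicates 1 and 2 of shNdufa5_1 in SCM, replicates 1 and 2 of shNdufa5_1 in PCM, replicate 1 of the PCM group labelled shNdufa5_2, replicate 3 of shControl in SCM and replicate 1 of shControl in PCM (0.14 to 0.23). The other differences were -0.05 (95% interval -0.21 to 0.11, adjusted p = 0.690) in the libraries labelled shNdufa5_2 and 0.13 (-0.03 to 0.29, adjusted p = 0.146) in shControl cells. Twist1 exons are 59.3% GC, and the shControl value was -0.31 (adjusted p = 0.00272) with that trend removed, a called fall in place of an uncalled positive difference.

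Vim encodes vimentin, the intermediate filament of mesenchymal cells (ENSMUSG00000026728; chromosome 2, 13573927 to 13582826). It had 576, 556 and 545 FPKM with shNdufa5_1 in SCM, against 446, 444 and 432 in PCM. Libraries labelled shNdufa5_2 had 438, 432 and 436 FPKM in SCM, against 379, 365 and 362 in PCM. In shControl cells it had 477, 469 and 468 FPKM in SCM, against 302, 291 and 272 in PCM. All 3 pairs of groups were apart, with SCM higher. The rise was 0.34 ± 0.03 (SE; adjusted p = 1.72e-06), 0.24 ± 0.03 (adjusted p = 0.000152) and 0.71 ± 0.03 (adjusted p = 1.03e-10), or 1.27, 1.18 and 1.63 times by group means. Under quantile normalization, which gives every library the same distribution of values, the differences were 0.03, 0.09 and 0.01 and none passed (adjusted p = 0.492, 0.0966 and 0.861). Scaled to total fragments, the shControl rise was 0.46 (adjusted p = 8.61e-09).

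Cdh2 encodes N-cadherin (ENSMUSG00000024304; chromosome 18, 16588877 to 16809246, minus strand) and kept to 7.06 to 9.44 FPKM over all libraries. Its medium difference was -0.04 (95% interval -0.18 to 0.10, adjusted p = 0.690) with shNdufa5_1, 0.14 (-0.0033 to 0.27, adjusted p = 0.152) in the libraries labelled shNdufa5_2 and -0.14 (-0.28 to -0.0034, adjusted p = 0.0702) in shControl cells. None passed. The shControl difference passed without replicate 1 of shControl in SCM (-0.19, adjusted p = 0.0342), without replicate 3 of shNdufa5_1 in PCM (-0.14, adjusted p = 0.0465) and with scaling to total fragments (-0.36).

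**Figure D2:**
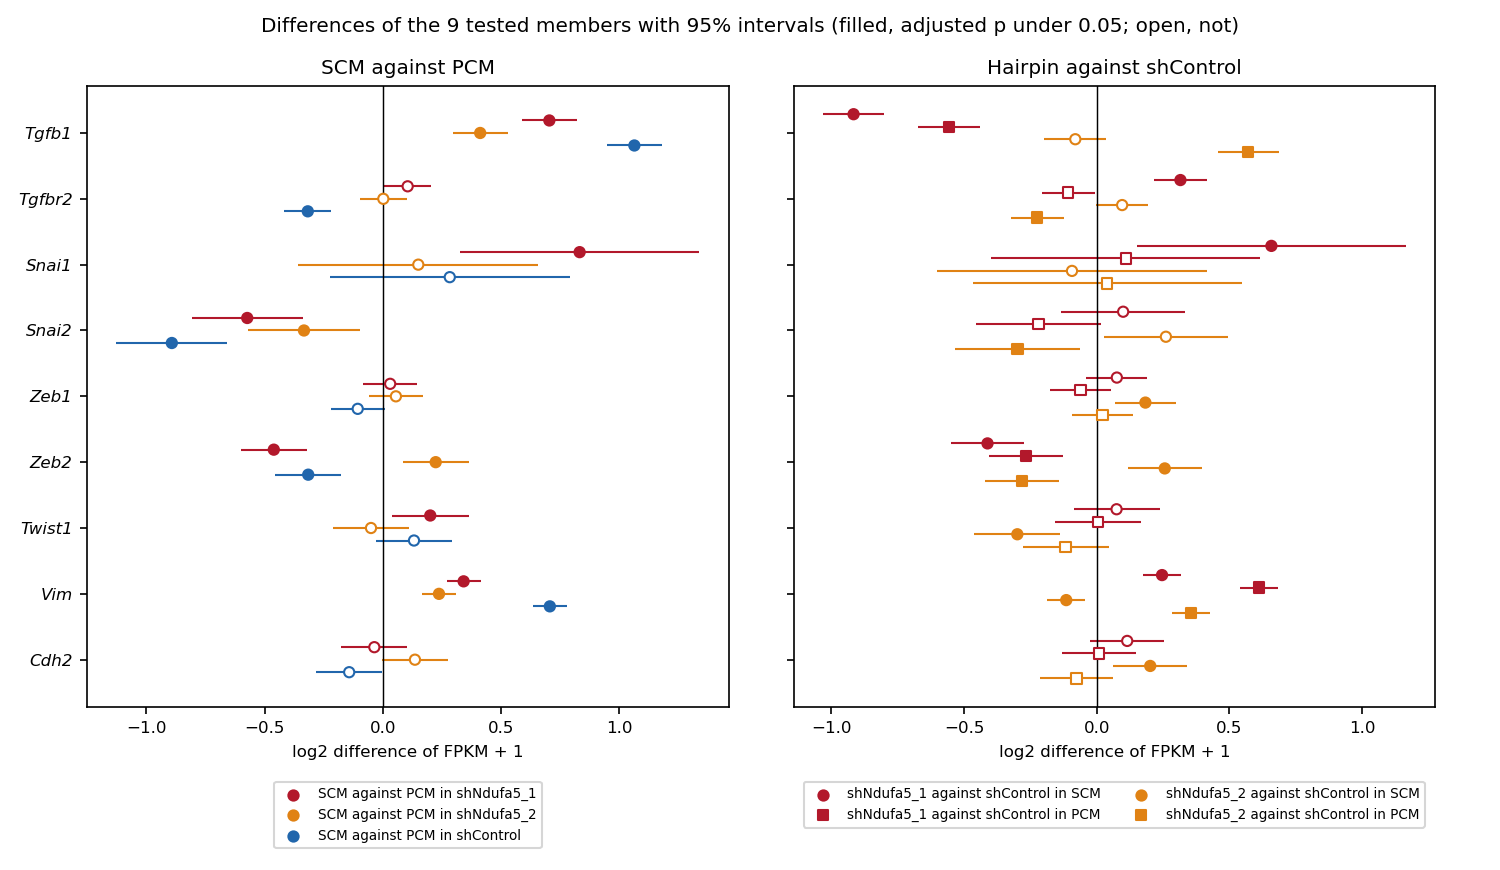
Log2 differences of FPKM + 1 (x axis) of the 9 tested genes (rows) with 95% intervals, SCM against PCM on the left and hairpin against shControl on the right; filled points have an adjusted p under 0.05. Tgfb1 and Vim lie right of 0 and Snai2 left of 0 in all 3 medium comparisons, and the wide intervals are those of Snai1, a low gene.

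**Figure D3:**
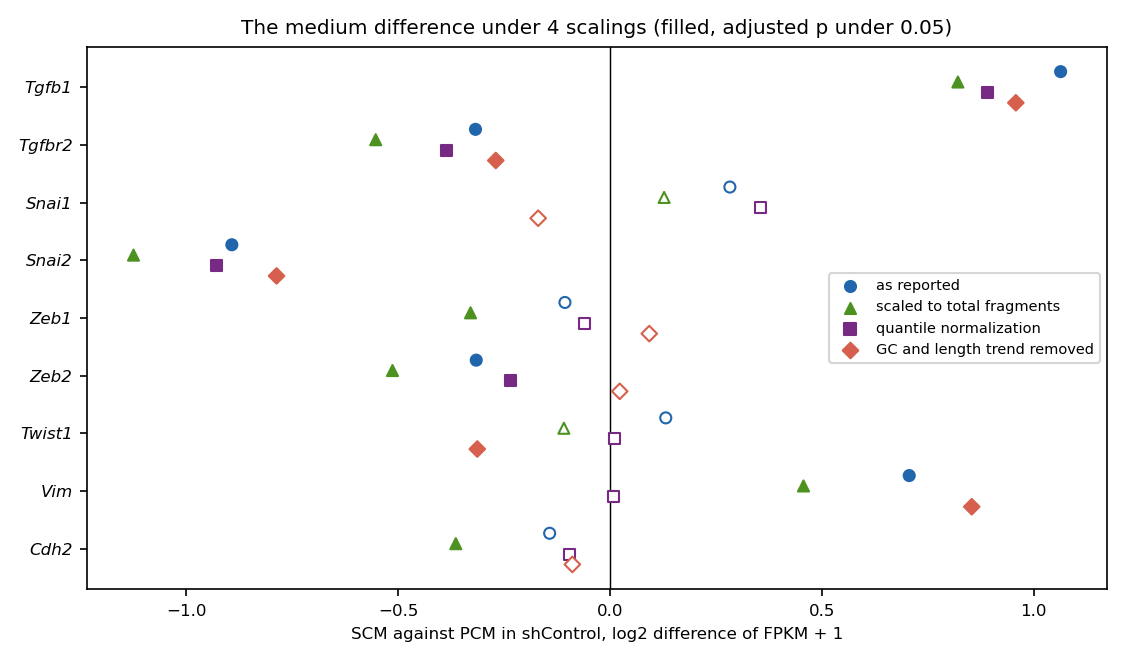
SCM against PCM in shControl cells (x axis, log2 difference of FPKM + 1) for the 9 tested genes (rows) under 4 scalings, filled where the adjusted p is under 0.05. Tgfb1, Tgfbr2 and Snai2 keep their side of 0 under all 4, whereas Vim is at 0.01 under quantile normalization and Zeb2 at 0.02 with the GC and length trend removed.

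The second question was what the hairpins against Ndufa5 did in each medium. Tgfb1 and Zeb2 were lower and Vim higher with shNdufa5_1 than with shControl in both media. In SCM, Tgfbr2 and Snai1 were higher as well. In PCM, Vim was also higher and Zeb2 also lower in the libraries labelled shNdufa5_2 than with shControl, while Tgfb1 was higher there and Tgfbr2 and Snai2 were lower. In SCM, Zeb1, Zeb2 and Cdh2 were higher and Vim and Twist1 lower in those libraries. Several of these calls rest on the scaling or on 1 library, as given with each gene. In each medium the 2 hairpins were set against the same shControl libraries, so their values are not independent.

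With shNdufa5_1, 5 of 9 tested members were called in SCM (3 higher, 2 lower), beside 59.8% of all genes tested (28.7% higher, 31.1% lower). In PCM 3 were called (1 higher, 2 lower), beside 52.7% (25.6% higher, 27.1% lower). In the libraries labelled shNdufa5_2, 5 were called in SCM (3 higher, 2 lower), beside 33.9% (13.9% higher, 20% lower), and 5 in PCM (2 higher, 3 lower), beside 35.6% (19.3% higher, 16.3% lower). Libraries of 5 members did not overlap with shNdufa5_1 in SCM and of 5 in PCM, beside 65.1% and 59.8% of all genes, and of 5 members in either medium in the libraries labelled shNdufa5_2, beside 43.2% and 49.8%. The members' medians were 0.10 in SCM and -0.06 in PCM with shNdufa5_1, and 0.10 in SCM and -0.08 in PCM in the libraries labelled shNdufa5_2, beside medians of -0.01 to 0.01 over all genes tested. Of all called genes, 48.0% were higher with shNdufa5_1 in SCM, against 68.6% with values scaled to total fragments, which put the median of all genes at 0.15 there. In the libraries labelled shNdufa5_2 the share was 41.1% in SCM and 54.2% in PCM, against 68.1% and 31.2% with that scaling. Quantile normalization gave 57.9% in SCM.

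Tgfb1 averaged 23.7 ± 0.672 FPKM with shNdufa5_1 and 45.6 ± 0.862 with shControl in SCM (SD, n = 3 each), and 14.1 ± 0.240 and 21.4 ± 2.17 in PCM. The groups did not overlap, and Tgfb1 fell by 0.92 ± 0.05 (SE; adjusted p = 1.14e-09) in SCM and by 0.56 ± 0.05 (adjusted p = 5.33e-07) in PCM. Among libraries labelled shNdufa5_2 it averaged 43.1 ± 1.77 FPKM in SCM, a difference of -0.08 (95% interval -0.20 to 0.04, adjusted p = 0.277), and 32.1 ± 0.583 in PCM, where it rose by 0.57 ± 0.05 (adjusted p = 1.79e-06). Thus in PCM the 2 hairpins lay on opposite sides of shControl for the ligand.

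Tgfbr2 averaged 19.03 ± 0.366 FPKM with shNdufa5_1 and 15.1 ± 0.256 with shControl in SCM, a rise of 0.32 ± 0.05 (SE; adjusted p = 2.56e-05). In PCM it averaged 17.6 ± 0.978 and 19.1 ± 0.192 FPKM, a difference of -0.11 (95% interval -0.21 to -0.01, adjusted p = 0.0646) that passed without replicate 3 of shNdufa5_1 in PCM (-0.15) and without replicate 1 of the SCM group labelled shNdufa5_2 (-0.11). That difference also passed with scaling to total fragments (-0.12, adjusted p = 0.0479) and with the GC and length trend removed (-0.12, adjusted p = 0.0369). In libraries labelled shNdufa5_2 Tgfbr2 fell by 0.22 ± 0.05 in PCM (adjusted p = 0.00150), at 16.2 ± 0.581 FPKM. In SCM its difference there was 0.10 (-0.0030 to 0.19, adjusted p = 0.126), and 0.14 without replicate 1 of that group (adjusted p = 0.0327). With scaling to total fragments it was 0.19 (adjusted p = 0.00716). Tgfbi, not tested, averaged 1.15 ± 0.156 FPKM with shNdufa5_1, 0.894 ± 0.235 in the libraries labelled shNdufa5_2 and 1.08 ± 0.0421 with shControl in SCM, and 0.527 ± 0.155, 0.472 ± 0.0325 and 0.647 ± 0.159 in PCM.

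Among the transcription factors, Snai1 averaged 3.61 ± 0.112 FPKM with shNdufa5_1 and 1.98 ± 0.654 with shControl in SCM, 1.83 times as much. Its rise of 0.66 ± 0.24 (SE; adjusted p = 0.0260) was lost without replicate 3 of shControl in SCM (0.46, adjusted p = 0.129), without replicate 2 (0.65) or 3 (0.64) of shNdufa5_1 in SCM, with a pseudocount of 0.1 (adjusted p = 0.0534) and with no filter on low values (adjusted p = 0.0738). With the GC and length trend removed it was 1.03. Its other differences from shControl did not pass, at 0.11 with shNdufa5_1 in PCM, and -0.09 in SCM and 0.04 in PCM in the libraries labelled shNdufa5_2 (adjusted p = 0.730, 0.798 and 0.915). Snai2 was called in 1 of 4 comparisons, a fall of 0.30 ± 0.11 in the libraries labelled shNdufa5_2 in PCM (17.0 ± 2.33 and, with shControl, 20.97 ± 0.769 FPKM, adjusted p = 0.0463). That call was kept in 7 of 18 fits that left out 1 library, and was lost with the GC and length trend removed (-0.23, adjusted p = 0.135) and with no filter on low values (adjusted p = 0.120). The differences were -0.20 to -0.39 over those fits, with the smallest without replicate 3 of the PCM group labelled shNdufa5_2 (adjusted p = 0.204). With shNdufa5_1 Snai2 differed by 0.10 in SCM and -0.22 in PCM (adjusted p = 0.458 and 0.108). In SCM it differed by 0.26 in the libraries labelled shNdufa5_2 (adjusted p = 0.0812). With scaling to total fragments both SCM differences passed (0.27 and 0.35, adjusted p = 0.0432 and 0.0239). The 0.26 also passed without replicate 3 of its group (0.34, adjusted p = 0.0446). The -0.22 passed with only the compared groups in the fit (adjusted p = 0.0232).

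Zeb2 averaged 2.39 ± 0.0789 FPKM with shNdufa5_1 and 3.52 ± 0.354 with shControl in SCM, and 3.67 ± 0.0941 and 4.63 ± 0.358 in PCM. It fell by 0.41 ± 0.07 (SE; adjusted p = 5.47e-05) and by 0.27 ± 0.07 (adjusted p = 0.00292), and by 0.65 and 0.49 with the GC and length trend removed. Among libraries labelled shNdufa5_2 it averaged 4.39 ± 0.136 FPKM in SCM and 3.62 ± 0.161 in PCM, a rise of 0.26 ± 0.07 (adjusted p = 0.00702) and a fall of 0.28 ± 0.07 (adjusted p = 0.00326). Both were lost with that trend removed (0.01 and -0.05; adjusted p = 0.895 and 0.582), and the rise also with only the compared groups in the fit (adjusted p = 0.0647).

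Zeb1 rose in 1 of 4 comparisons, by 0.18 ± 0.05 in the libraries labelled shNdufa5_2 in SCM (9.30 ± 0.384 and, with shControl, 8.08 ± 0.572 FPKM, adjusted p = 0.0159). That call was lost without replicate 2 of that group (0.16) or replicate 3 of shControl (0.14), with the GC and length trend removed (0.08, adjusted p = 0.325), and with only the compared groups in the fit (adjusted p = 0.0895). With shNdufa5_1, Zeb1 passed in SCM with scaling to total fragments (0.24, adjusted p = 0.00117). In PCM it passed with the GC and length trend removed (-0.16, adjusted p = 0.0230). Twist1 fell by 0.30 ± 0.08 in the libraries labelled shNdufa5_2 in SCM (21.3 ± 1.63 and, with shControl, 26.4 ± 1.51 FPKM, adjusted p = 0.00695), and by 0.10 with that trend removed (adjusted p = 0.360). With shNdufa5_1 its differences were 0.07 in SCM and 0.01 in PCM (adjusted p = 0.417 and 0.953), though in SCM it was 0.45 with the trend removed (adjusted p = 0.000117). In SCM it also passed with scaling to total fragments (0.26) and quantile normalization (0.19). In the libraries labelled shNdufa5_2 in PCM, Twist1 differed by -0.12 (adjusted p = 0.251). That difference passed with scaling to total fragments (-0.21, adjusted p = 0.0437) and with the trend removed (-0.32, adjusted p = 0.00585).

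The structural genes differed from each other. Vim averaged 559 ± 15.6 FPKM with shNdufa5_1 and 471 ± 5.09 with shControl in SCM, and 441 ± 7.61 and 289 ± 15.05 in PCM. It rose by 0.25 ± 0.03 (SE; adjusted p = 1.17e-05) and by 0.61 ± 0.03 (adjusted p = 1.00e-09), and by 0.92 and 0.89 under quantile normalization. With the GC and length trend removed, its rise in SCM was 0.11 (adjusted p = 0.0153), and it was 0.44 with scaling to total fragments. In libraries labelled shNdufa5_2 it averaged 435 ± 3.08 FPKM in SCM and 369 ± 8.93 in PCM, a fall of 0.11 ± 0.03 (adjusted p = 0.0156) and a rise of 0.35 ± 0.03 (adjusted p = 1.67e-06). Quantile normalization turned the first to 0.11 (adjusted p = 0.0440) and ended the second (0.03, adjusted p = 0.654). The first was lost with scaling to total fragments (-0.02, adjusted p = 0.697) and without replicate 1 of shControl in SCM (-0.11, adjusted p = 0.0511). Cdh2 rose in 1 of 4 comparisons, by 0.20 ± 0.07 in the libraries labelled shNdufa5_2 in SCM (8.89 ± 0.267 and, with shControl, 7.61 ± 0.539 FPKM, adjusted p = 0.0264). It was lost without replicate 1 or 3 of that group or replicate 2 or 3 of shControl in SCM (0.16 to 0.21). It was also lost with the GC and length trend removed (0.17, adjusted p = 0.0697), with no filter on low values (adjusted p = 0.0559) and with only the compared groups in the fit (adjusted p = 0.0639). With shNdufa5_1 in SCM Cdh2 differed by 0.11 (adjusted p = 0.142), which passed with scaling to total fragments (0.28, adjusted p = 0.0016).

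The third question was whether the response to SCM differed between the hairpins and shControl. The difference of responses passed for 3 of 9 members with shNdufa5_1 (1 higher, 2 lower), beside 26.2% of all genes tested (10.7% higher, 15.5% lower). Among libraries labelled shNdufa5_2 it passed for 6 of 9 (4 higher, 2 lower), beside 43% (18.9% higher, 24.1% lower). Of all called genes 40.9% and 44.0% were higher, and 81.2% and 71.5% with values scaled to total fragments, which put the median of all genes at 0.16 and 0.13. Quantile normalization gave 59.0% and 56.5%. The response to SCM was lower than in shControl cells for Tgfb1 and Vim, and higher for Tgfbr2, with either hairpin. For Tgfb1 the difference of responses was -0.36 ± 0.08 (SE; adjusted p = 0.00278) with shNdufa5_1 and -0.65 ± 0.08 (adjusted p = 9.00e-06) in the libraries labelled shNdufa5_2. The first of these was lost with scaling to total fragments (-0.16, adjusted p = 0.116) and with quantile normalization (-0.18, adjusted p = 0.111). For Tgfbr2 the values were 0.42 ± 0.07 (adjusted p = 0.000204) and 0.32 ± 0.07 (adjusted p = 0.00110). For Vim they were -0.36 ± 0.05 (adjusted p = 4.16e-05) and -0.47 ± 0.05 (adjusted p = 2.05e-06), and 0.03 and 0.08 under quantile normalization, neither of them called. The response of Snai2 was higher in the libraries labelled shNdufa5_2 than in shControl cells (0.56 ± 0.16, adjusted p = 0.00914). With shNdufa5_1 its value was 0.32 ± 0.16 (adjusted p = 0.150), which passed with scaling to total fragments (0.50, adjusted p = 0.0204). Zeb2 in the libraries labelled shNdufa5_2 differed by 0.54 ± 0.09 (adjusted p = 0.000249), and by 0.06 with the GC and length trend removed (adjusted p = 0.614). Cdh2 differed there by 0.28 ± 0.09 (adjusted p = 0.0238), a call lost without replicate 1 or 3 of the PCM group or replicate 1 of the SCM group labelled shNdufa5_2, or replicate 3 of shControl in SCM (0.23 to 0.26). The Cdh2 call was also lost under quantile normalization (0.23, adjusted p = 0.0636), with the GC and length trend removed (0.23, adjusted p = 0.0808) and with no filter on low values (adjusted p = 0.0513). For Snai1, Zeb1 and Twist1 no difference of responses passed in the fit reported. Zeb1 passed in 1 of 9 other settings with either hairpin. It also passed in 1 of 18 fits that left out 1 library for the libraries labelled shNdufa5_2. Cdh2 with shNdufa5_1 was at 0.11 (adjusted p = 0.436) and passed in 1 of 9 other settings.

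Other genes of the pathway, listed apart from the members, were read in the same comparisons, in which 42.3% of all genes tested were called with shNdufa5_1, 22.8% in the libraries labelled shNdufa5_2 and 61.9% in shControl cells. Of 8 tested ligands and activators, 5 were higher and 2 lower in SCM with shNdufa5_1, 8 were higher in the libraries labelled shNdufa5_2, and 3 were higher and 3 lower in shControl cells. Tgfb3, another TGF-beta ligand, averaged 38.0 ± 1.67 and 25.2 ± 0.201 FPKM in SCM and PCM with shNdufa5_1, and 32.4 ± 0.924 and 21.6 ± 0.617 in shControl cells, where it rose by 0.56 ± 0.04. Ltbp3 and Ltbp4, which encode latent TGF-beta binding proteins, rose there by 0.52 ± 0.06 and 0.51 ± 0.11. Of 7 tested receptors, 0 were higher and 3 lower in SCM with shNdufa5_1, 2 were higher in the libraries labelled shNdufa5_2, and 1 was higher and 5 lower in shControl cells. Falls there were led by Acvr2a, an activin type II receptor (-0.65 ± 0.09), Bmpr1a, a BMP type I receptor (-0.47 ± 0.06), and Tgfbr1, the type I partner of Tgfbr2 (-0.43 ± 0.09). Of 5 tested Smad signal carriers, 4 were lower in shControl cells, with Smad5 at -0.42 ± 0.06 and Smad2 at -0.33 ± 0.06, against 1 higher with shNdufa5_1 and none called in the libraries labelled shNdufa5_2. The list medians in shControl cells were 0.02 for ligands, -0.37 for receptors and -0.19 for Smads, beside 0.00 for all genes. With the GC and length trend removed, the receptor median there was -0.17 with 1 higher and 4 lower, and the 3 receptor falls with shNdufa5_1 were all lost.

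Of 10 tested inhibitors of the signal, 2 were higher and 4 lower in SCM with shNdufa5_1, 3 were lower in the libraries labelled shNdufa5_2, and 3 were higher and 5 lower in shControl cells, beside the same 42.3%, 22.8% and 61.9% of all genes called in either direction. Their medians were -0.11, -0.09 and -0.10, beside 0.02, 0.00 and 0.00 for all genes tested. Ppm1a, a phosphatase that acts on Smads, fell by 0.63 ± 0.05 and Smurf2, a ubiquitin ligase, by 0.57 ± 0.05 in shControl cells, while the inhibitory Smad gene Smad6 rose by 0.63 ± 0.12. Of 13 tested genes induced by TGF-beta, 8 were higher and 2 lower with shNdufa5_1, 3 higher and 3 lower in the libraries labelled shNdufa5_2, and 6 higher and 5 lower in shControl cells. In shControl cells Id1 rose by 0.78 ± 0.08 and Junb fell by 0.52 ± 0.05. Whether TGF-beta induces the genes of that list, Id1 among them, in this line was not tested. The medians of that list were 0.20 with shNdufa5_1, 0.03 in the libraries labelled shNdufa5_2 and 0.13 in shControl cells, and the last was negative under each other scaling: -0.12 with total fragments, -0.35 with quantile normalization and -0.09 with the GC and length trend removed.

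Of 8 other mesenchymal structure genes tested, none was called lower in SCM. Called higher were 6 with shNdufa5_1, 6 in the libraries labelled shNdufa5_2 and 7 in shControl cells. Of all genes tested, 22.5%, 11.7% and 31.7% were called higher in these comparisons. The list's medians were 0.28, 0.39 and 0.60, beside 0.02, 0.00 and 0.00 for all genes tested. In shControl cells Sparc, a matrix glycoprotein gene, averaged 206 ± 3.66 FPKM in SCM and 124 ± 2.74 in PCM and rose by 0.73 ± 0.03. S100a4 rose by 0.86 ± 0.29 and the fibronectin receptor chain gene Itga5 by 0.66 ± 0.04. Fn1, the fibronectin gene, rose by 0.41 in shControl cells but was -0.38 there under quantile normalization. Of 6 other EMT transcription factors tested, 3 were higher and 2 lower with shNdufa5_1, and 2 higher in the libraries labelled shNdufa5_2. In shControl cells 3 were higher and 1 lower. Of all genes tested, 42.3%, 22.8% and 61.9% were called in either direction in that order. The counts in the libraries labelled shNdufa5_2 and in shControl cells were near these shares. With shControl, Tcf3 rose by 0.53 ± 0.06, Twist2 by 0.45 ± 0.16 and Foxc1 by 0.42 ± 0.07.

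Epithelial genes were read beside the mesenchymal ones. Of 7 tested junction and keratin genes, 5 were higher and 1 lower in SCM with shNdufa5_1, 2 were higher in the libraries labelled shNdufa5_2, and 5 were higher and 1 lower in shControl cells, beside 42.3%, 22.8% and 61.9% of all genes called in either direction. Their medians were 0.26, -0.04 and 0.35, so the count in the libraries labelled shNdufa5_2 was near the background. In shControl cells Krt19 rose by 1.07 ± 0.04 and Krt18 by 0.53 ± 0.04, and Tjp1, a tight junction scaffold gene, fell by 0.74 ± 0.04. The list's summed level was 1676 to 1787 FPKM in SCM and 1112 to 1191 in PCM in shControl cells. Under quantile normalization 1 was higher and 3 lower there, with Krt18 at -0.21 and Krt7 at -0.23. Of 10 regulators that oppose EMT, 3 were tested. In SCM, 1 was higher and 1 lower with shNdufa5_1, none was called in the libraries labelled shNdufa5_2, and 1 was lower in shControl cells. Of all genes tested, 42.3%, 22.8% and 61.9% were called in either direction in that order. The fall in shControl cells was that of the pluripotency and epithelial factor gene Klf4, by 0.39 ± 0.05. Markers of other cell types that moved in shControl cells were Cd68 (1.28 ± 0.20), Plvap (0.65 ± 0.12), Msln (0.55 ± 0.04), Dcn (0.32 ± 0.12) and Pdgfra (0.30 ± 0.10). Msln was the only mesothelial marker tested of 3 listed, and Plvap the only endothelial one of 5. The summed fibroblast markers were 3.10 to 3.59 FPKM in SCM and 2.18 to 2.66 in PCM, the immune ones 11.97 to 14.4 and 7.998 to 9.05, the endothelial ones 5.67 to 8.48 and 3.55 to 4.47, and the mesothelial ones 59.6 to 63.9 and 40.7 to 43.9.

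**Figure D4:**
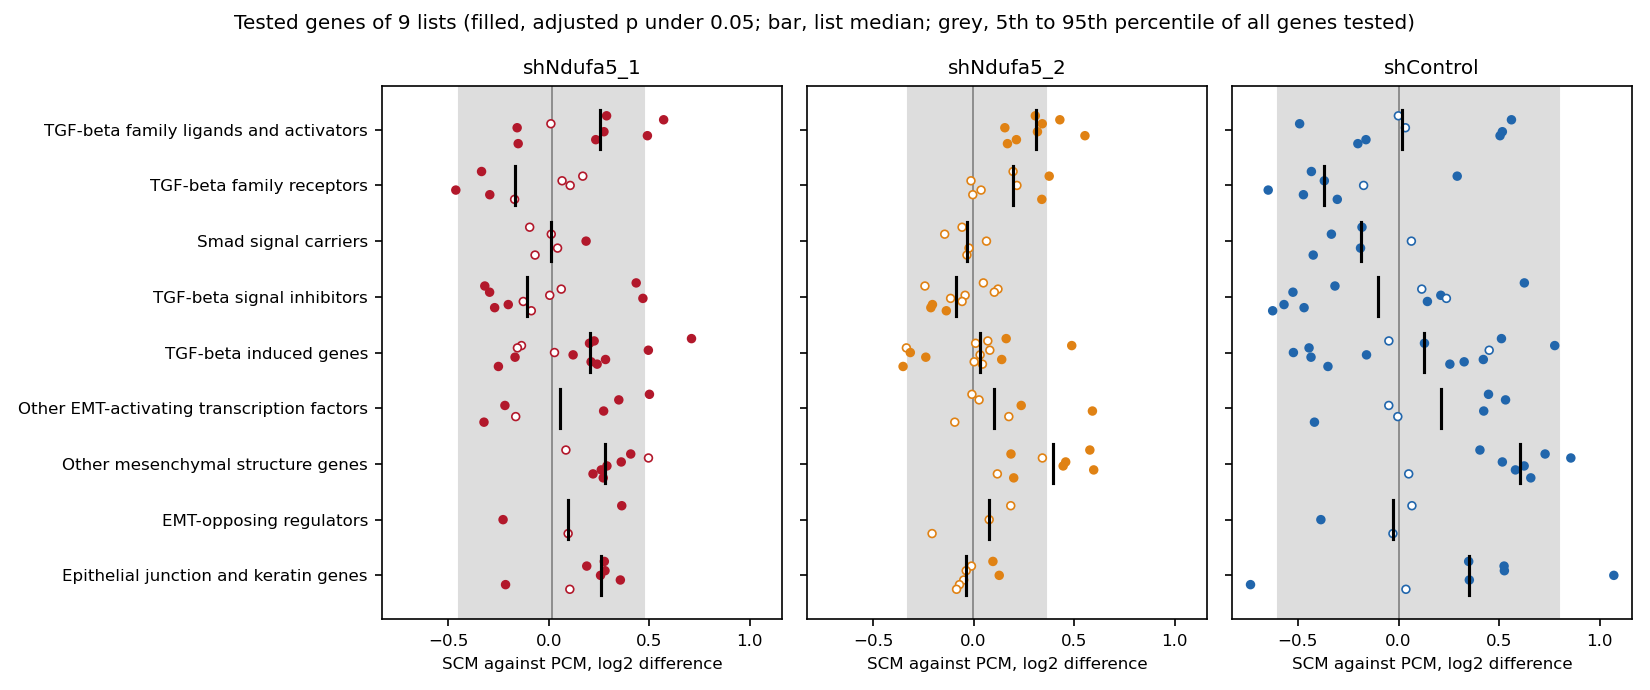
SCM against PCM (x axis, log2 difference of FPKM + 1) for the tested genes of 9 lists (rows), 1 panel per hairpin, filled where the adjusted p is under 0.05, with list medians as black bars and the 5th to 95th percentile of all genes tested in grey. The other mesenchymal structure genes have the median farthest right, 0.60, in shControl cells, where the receptors' median is -0.37.

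With shNdufa5_1 against shControl, 4 of 5 tested Smad carriers were higher in SCM and 3 in PCM, with 1 lower in PCM, beside 28.7% of all genes tested higher in SCM and 25.6% higher in PCM. The list's medians were 0.37 in SCM and 0.24 in PCM, beside 0.00 and -0.01 for all genes. Smad5 was higher by 0.60 ± 0.06 in SCM and Smad4 by 0.58 ± 0.07. Thbs1, whose product activates latent TGF-beta, rose by 1.17 ± 0.04 in SCM and 0.78 ± 0.04 in PCM, while Tgfb1 itself was lower. Of 13 genes listed as TGF-beta induced, 6 were higher and 4 lower in either medium. Of all genes tested, 59.8% were called in SCM and 52.7% in PCM. The list's medians were 0.34 in SCM and 0.33 in PCM. Among the listed genes were Ctgf (0.82 ± 0.05 in SCM), Id2 (1.05 ± 0.12 in SCM), Id1 (1.00 ± 0.08 in PCM) and Cyr61 (-0.77 ± 0.04 in SCM and -0.84 ± 0.04 in PCM). Whether TGF-beta set the levels of these genes was not tested. Tcf4, an E protein factor gene, rose by 0.82 ± 0.06 and 0.99 ± 0.06 in SCM and PCM, and the collagen gene Col3a1 by 0.65 ± 0.06 and 0.99 ± 0.06. Fn1 fell by 0.51 in SCM, though its difference was 0.06 under quantile normalization (adjusted p = 0.276). The fibronectin receptor chain gene Itga5 fell by 0.51 there. Of the 8 tested genes of the mesenchymal structure list, 2 were higher and 3 lower in SCM, and 3 higher and 3 lower in PCM. That list did not share a direction, beside 59.8% and 52.7% of all genes called in either direction. Krt7 rose by 0.63 ± 0.03 and 0.71 ± 0.03 and the claudin gene Cldn3 fell by 0.66 in both media. Marker genes Cd68 (-1.502 ± 0.20), Cd14 (0.63 ± 0.10), Pdgfra (-0.37 ± 0.10) and Pax8 (-0.75 ± 0.06) differed in SCM, with summed immune markers of 11.6 to 12.2 FPKM in shNdufa5_1 cells and 11.97 to 14.4 in shControl cells, and their part in the results was not tested.

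The genes most like each member over the 18 libraries were ranked by Pearson's r of log2(FPKM + 1), a description in which libraries share groups. For Tgfb1 these were Retreg2 (r = 0.990), Rps13 (0.988) and Cox7a2l (0.986). For Tgfbr2 they were Atp8b2 (0.896), Ppp1r15b (0.890) and Eomes (0.873), and for Snai1 Ctps2 (0.910), Ift140 (0.885) and Mindy4 (0.832). Snai2 was closest to Riok3 (0.926), Zfp617 (0.917) and Hmga2 (0.916), and Zeb1 to Akr1b8 (0.826), Tmem263 (0.814) and Lin52 (0.752). Zeb2 was closest to Larp4 (0.964), Samd8 (0.959) and Ptbp3 (0.947), and Twist1 to Tubb4b-ps1 (0.854), Klhdc8a (0.842) and Dbn1 (0.831). The 3 genes closest to Vim included Hnrnpl (0.979) and Tubb5 (0.974), and Cdh2 was closest to Dubr (0.826), Cers6 (0.759) and Nck1 (0.745). No member was among the 3 genes closest to another member. Among the members' own pairs, r over the 18 libraries was lowest for Snai2 with Vim (-0.771) and Zeb2 with Vim (-0.753), and highest for Snai1 with Vim (0.630) and Zeb1 with Cdh2 (0.618). Tgfb1 and Tgfbr2 had r = -0.695 and Zeb1 and Zeb2 r = 0.330.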

How the data were processed

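RNA of 18 libraries (6 groups of 3) was measured by polyA sequencing, and the authors deposited FPKM values for 54532 genes. STAR 2.6.1, DESeq2, GRCm38 and mm10 are named per the submitters' processing notes. How fragments were counted, and with which lengths and strand setting, is not given in the sources used here, so antisense or overlapping genes cannot be told apart from a member's reads. Steps of the low values gave whole fragments, within 0.1 fragments up to 20, when the joined length of a gene's annotated exons was used. These were 99.5% to 99.8% of values of genes with a single transcript and 96.6% to 97.8% of values of other genes. Depths were 13.8 to 38.9 M fragments. Counting error is therefore largest for Tgfbi and Snai1, with 18 to 131 fragments a library.

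Samples were grouped by their labels. Differences were fitted with limma 3.58.1 in R 4.3.3 on log2(FPKM + 1) of 11084 genes, those averaging at least 1 FPKM, with a trended prior, all 6 groups in one fit, no replicate block and Benjamini-Hochberg adjustment over all genes tested, for 9 contrasts. The code was tested on simulated data. Alternatives were a pseudocount of 0.1, no filter (25842 genes), scaling to total fragments, quantile normalization, removal of each library's trend with GC content and length (11074 genes), fits of the compared groups alone, a replicate block, and leaving out each library. All 10 members are named, with up to 3 called genes of the largest difference per list in SCM against PCM in shControl cells and in shNdufa5_1 against shControl, and the 3 genes most correlated with each tested member; Fn1 in SCM against PCM, Tgfb3 with shNdufa5_1 and Krt8 were named after their values were seen. The members and lists were chosen with earlier results of these data known. Values of some genes that the naming rules reach are not reported here.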

Additional observations from a re-analysis of the deposited data

Results flagged for a closer look

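For 6 members the response to SCM differed between a hairpin and shControl by the interaction term of limma's fit (adjusted p under 0.05 over all genes tested). With shNdufa5_1 minus shControl, the differences of responses were -0.36 for Tgfb1, 0.42 for Tgfbr2 and -0.36 for Vim. In the libraries labelled shNdufa5_2 minus shControl, they were -0.65 for Tgfb1, 0.32 for Tgfbr2, 0.56 for Snai2, 0.54 for Zeb2, -0.47 for Vim and 0.28 for Cdh2. Both sets used the same shControl libraries. Summed FPKM was 318823 to 348404 in SCM and 298724 to 368936 in PCM with shNdufa5_1, and 437859 to 484520 in SCM and 290242 to 303782 in PCM with shControl. The part of that gap in these differences was not tested beyond the scalings reported.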

How the results depend on the processing

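With each library's trend with GC content and length removed, with or without the replicate block, 3 members were called between media with shNdufa5_1, 2 in the libraries labelled shNdufa5_2, 5 with shNdufa5_1 against shControl in PCM, and 1 in the libraries labelled shNdufa5_2 against shControl in SCM. In these same fits Zeb2 in shControl cells turned to 0.023, and Twist1 to -0.31 in shControl cells and to -0.024 with shNdufa5_1. With only the compared groups in the fit, 2 members were called between media in the libraries labelled shNdufa5_2 and 2 against shControl in SCM. With scaling to total fragments, 9 were called with shNdufa5_1 against shControl in SCM, and 5 for the difference of responses with shNdufa5_1, against 1 with quantile normalization. Quantile normalization also turned Vim to 0.11 in the libraries labelled shNdufa5_2 against shControl in SCM, and made the differences of responses of Vim 0.026 (shNdufa5_1) and 0.084 (libraries labelled shNdufa5_2). With a pseudocount of 0.1 and no filter, chosen after seeing the data, 3 were called in the libraries labelled shNdufa5_2 against shControl in SCM. Leaving out 1 library gave 5 to 7 called members between media in shControl cells, 4 to 7 with shNdufa5_1 and 2 to 4 in the libraries labelled shNdufa5_2. Against shControl it gave 3 to 4 in PCM and 4 to 5 in SCM with shNdufa5_1, and 4 to 5 in PCM and 3 to 5 in SCM in the libraries labelled shNdufa5_2. For the differences of responses it gave 3 in every fit with shNdufa5_1 and 5 to 7 in the libraries labelled shNdufa5_2. The cause of these changes was not tested.

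The replicate block alone left all 81 differences on the same side of the threshold. Deviations of same-numbered libraries from their group means had r from -0.085 to 0.061 over 21 pairs. With 3 libraries a group, this cannot tell whether they share more than a number. Replicate 2 of shControl was the deepest of its group in both media, at 38.9 M fragments in SCM and 33.8 M in PCM. Of all genes, 4768 were called for the difference of responses in the libraries labelled shNdufa5_2, and 2950 with the GC and length trend removed (2876 with the block as well).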
